A study of Mus musculus with 9 samples.

Results

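The genes described here encode nuclear-encoded subunits of the mitochondrial respiratory chain (complexes I, III and IV) and the ATP synthase, with some assembly factors. They were taken as the GENCODE M21 protein-coding genes on the mouse autosomes and X whose symbol begins with Nduf, Uqcr, Cox4 to Cox8 followed by a letter, or Atp5. This gave 90 genes under 89 symbols, because Atp5o stands under 2 gene IDs, out of 21755 protein-coding genes on these chromosomes. The symbols leave out Cyc1 of complex III, which is counted with the other genes of the pathway. The 90 genes were sorted from knowledge of the genes, but with earlier results of these data known. The classes were 72 ubiquitous subunits, 7 tissue-restricted isoforms, 10 assembly or regulatory factors and Ndufa4l2, a paralogue of Ndufa4 known to be induced by hypoxia.

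The study asked how the SET1 complex, a histone H3 lysine 4 methyltransferase, finds its target promoters, and C127 cells, a mouse mammary epithelial line with no treatment in its labels, were profiled for non-methylated DNA, accessible chromatin and nascent RNA. For non-methylated DNA there was 1 BioCAP library and 1 BioCAP input. In BioCAP, sonicated genomic DNA is passed over resin coupled to the KDM2B CXXC domain, which holds CpG sites lacking methylation, and the DNA that leaves the resin only at high salt is sequenced. The regions enriched in this library, called non-methylated islands (NMIs), were available as a list of 13491 intervals on mm10 with a median width of 990 bp, and a gene was counted as having an NMI when the 5′ end of any of its annotated transcripts, its transcription start site (TSS), lay in an interval. The list held positions only, with no height, read depth or score, so the presence and the extent of an NMI were the measurements. With 1 library of 1 cell line there was no replicate and no test across samples. The list carries no expression values, so neither the epithelial identity of the cells nor the transcription of the genes was checked here. Where a gene is said to have no NMI, the list holds none there, and its methylation was not measured.

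The respiratory chain passes electrons from NADH through complex I and complex III to complex IV, cytochrome c oxidase, and the proton gradient this builds drives the ATP synthase. Most subunits are needed in every respiring cell, and their genes are usually treated as housekeeping genes with CpG island promoters, stretches of CpG-rich DNA that normally lack methylation. Complex IV is the exception in having several subunits that exist as pairs of isoforms from separate genes, a ubiquitous one and one found mainly in heart and skeletal muscle, lung or testis.

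Promoters are shown for the 4 such isoform pairs in which a RefSeq promoter was matched for both genes. In 3 of the 4 the restricted isoform had fewer CpG sites just upstream of the start. Each line gives the 250 bases upstream of the RefSeq start on GRCm38.p6, read along the transcript, with every CpG in capitals and the restricted isoform above its ubiquitous partner.
Cox8b: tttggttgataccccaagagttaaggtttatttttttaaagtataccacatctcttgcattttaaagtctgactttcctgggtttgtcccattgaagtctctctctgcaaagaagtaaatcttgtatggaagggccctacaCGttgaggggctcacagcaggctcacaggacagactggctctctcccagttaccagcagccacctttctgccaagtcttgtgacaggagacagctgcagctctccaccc
Cox8a: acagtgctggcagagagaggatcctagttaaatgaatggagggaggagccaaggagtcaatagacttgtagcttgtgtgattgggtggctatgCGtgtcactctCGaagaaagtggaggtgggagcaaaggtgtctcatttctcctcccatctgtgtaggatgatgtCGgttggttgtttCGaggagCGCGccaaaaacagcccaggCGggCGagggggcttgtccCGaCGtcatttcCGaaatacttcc
Cox7a1: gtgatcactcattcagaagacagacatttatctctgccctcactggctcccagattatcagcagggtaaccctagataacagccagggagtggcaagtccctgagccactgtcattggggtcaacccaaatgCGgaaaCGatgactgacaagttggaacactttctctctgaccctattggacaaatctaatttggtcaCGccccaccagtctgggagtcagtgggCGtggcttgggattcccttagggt
Cox7a2: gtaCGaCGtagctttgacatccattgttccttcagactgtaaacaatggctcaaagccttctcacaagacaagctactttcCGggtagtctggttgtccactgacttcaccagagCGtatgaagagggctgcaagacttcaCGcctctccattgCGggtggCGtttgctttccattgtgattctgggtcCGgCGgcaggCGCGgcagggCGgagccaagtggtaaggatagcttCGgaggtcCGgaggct
Cox6b2: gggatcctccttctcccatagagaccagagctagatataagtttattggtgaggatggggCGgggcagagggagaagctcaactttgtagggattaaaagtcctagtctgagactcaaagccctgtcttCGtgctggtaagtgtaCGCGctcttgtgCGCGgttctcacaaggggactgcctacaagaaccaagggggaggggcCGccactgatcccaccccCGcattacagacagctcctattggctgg
Cox6b1: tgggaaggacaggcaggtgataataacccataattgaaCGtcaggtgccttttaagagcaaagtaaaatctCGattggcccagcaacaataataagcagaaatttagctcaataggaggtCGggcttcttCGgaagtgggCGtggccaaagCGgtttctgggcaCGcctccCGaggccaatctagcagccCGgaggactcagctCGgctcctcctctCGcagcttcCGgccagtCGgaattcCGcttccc
Cox7b2: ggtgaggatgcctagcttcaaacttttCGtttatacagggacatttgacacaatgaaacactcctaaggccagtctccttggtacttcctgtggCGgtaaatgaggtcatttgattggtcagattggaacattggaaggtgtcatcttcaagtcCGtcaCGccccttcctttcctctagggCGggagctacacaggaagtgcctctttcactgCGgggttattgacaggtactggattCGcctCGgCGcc
Cox7b: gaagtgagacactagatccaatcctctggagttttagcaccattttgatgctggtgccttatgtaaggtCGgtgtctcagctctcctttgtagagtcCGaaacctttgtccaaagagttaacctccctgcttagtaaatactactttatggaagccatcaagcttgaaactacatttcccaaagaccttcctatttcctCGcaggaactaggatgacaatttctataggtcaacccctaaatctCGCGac

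Cox8b (chr7:140900447-140900696, minus strand), the heart and skeletal muscle form of subunit 8, held 1 CpG in these bases, against 11 in Cox8a (chr19:7217617-7217866, minus strand). Cox7a1 (chr7:30183921-30184170, plus strand), another heart and muscle form, held 4, against 14 in Cox7a2 (chr9:79759854-79760103, minus strand). The testis form Cox6b2 (chr7:4753095-4753344, minus strand) held 8, against 14 in Cox6b1 (chr7:30626115-30626364, minus strand). The testis form Cox7b2 (chr5:71548206-71548455, minus strand) held 9, against 5 in Cox7b (chrX:106015450-106015699, plus strand), the only one of these 4 pairs with more CpG sites upstream of the restricted isoform. All 250 bases of Cox7a2 and Cox6b1 and 245 of those of Cox8a lay in an NMI, and none of the bases of the other 5 promoters did.

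NMIs were present at 78 of the 90 genes (86.7%, exact 95% interval 77.9 to 92.9), against 10425 of all 21755 protein-coding genes (47.9%). The genes split by class. None of the 7 tissue-restricted isoforms had an NMI (0%, exact 95% interval 0 to 41.0), whereas 68 of the 72 ubiquitous subunits did (94.4%, 86.4 to 98.5). All 10 assembly and regulatory factors had one (exact 95% interval 69.2 to 100) and Ndufa4l2 had none. The intervals cover counting error over genes only, and genes are not replicates.

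Among the ubiquitous subunits the share with an NMI was 35 of 37 for complex I (94.6%), 8 of 8 for complex III, 9 of 10 for complex IV (90.0%) and 16 of 17 for the ATP synthase (94.1%). Complex IV as a whole, with its restricted isoforms and Cox7a2l, had an NMI at 10 of 18 genes (55.6%), the lowest share of the 4 complexes. The complexes follow the gene symbols here, so that Ndufa4, a protein since assigned to complex IV, stands with complex I. Of 13 noncoding genes whose symbols match the same pattern, the 12 processed pseudogenes had no NMI and Ndufb1-ps, annotated as a bidirectional promoter transcript, had one. The share over all noncoding genes or processed pseudogenes was not computed, so these counts are not read as particular to these copies.

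**Figure D1:**
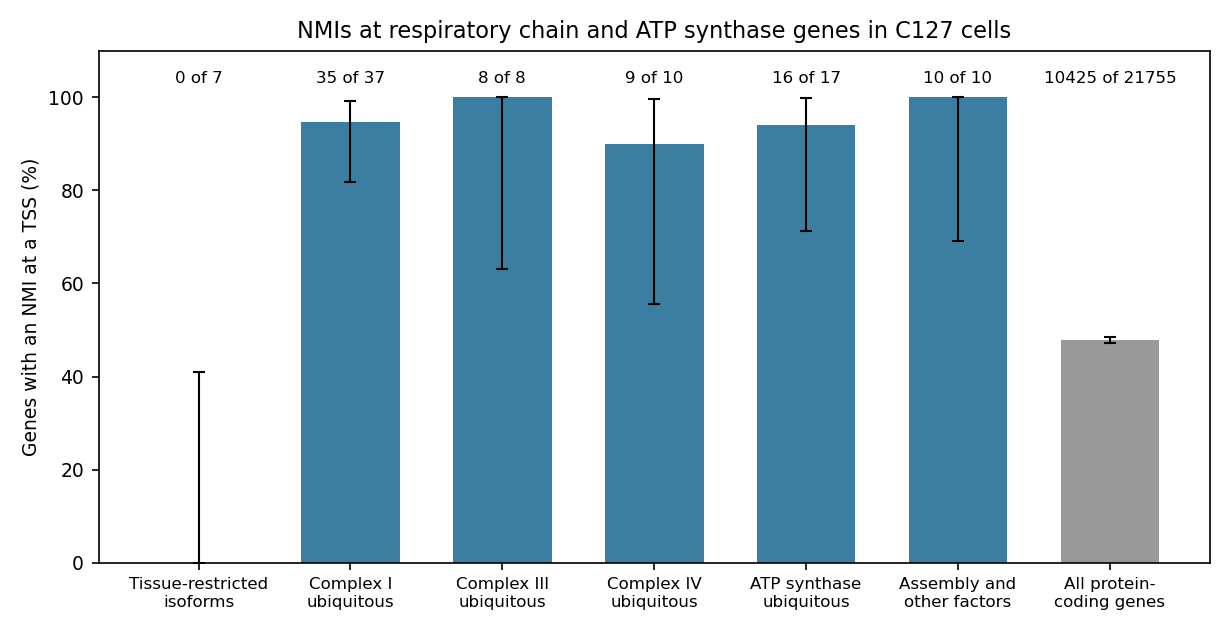
Bars show the share of genes (%) with an NMI at a TSS in C127 cells, by class and complex, with exact 95% binomial intervals and the counts above. The tissue-restricted isoforms are at 0 of 7, each ubiquitous group is at 90.0% or more, and all protein-coding genes are at 47.9%.

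The tissue-restricted isoforms lay in a narrow range of low CpG density. Counted over 500 bp to either side of the outermost TSS, their median was 2.4 CpG per 100 bp (1.7 to 3.6), against 5.59 for the ubiquitous subunits (0.999 to 13.1), 6.09 for the assembly and regulatory factors (0.699 to 8.29) and 4.1 for all protein-coding genes (quartiles 1.2 and 6.89). The observed over expected CpG ratio, which corrects for base composition, had a median of 0.379 in the restricted isoforms, 0.732 in the ubiquitous subunits and 0.558 over all protein-coding genes. GC content differed less, with medians of 53.4%, 56.6% and 54.8% in the same order.

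Taken pair by pair, CpG density was lower at the restricted isoform than at its ubiquitous partner in 7 of 7 pairs. Cox4i2, the lung form of the regulatory subunit 4, had 3.4 CpG per 100 bp and its nearest NMI 11444 bp away, against 13.1 CpG per 100 bp and an NMI of 1437 bp at Cox4i1. This was the largest difference, -9.69 CpG per 100 bp. Cox6a2, the heart and muscle form of subunit 6a, had 1.7 CpG per 100 bp, against 9.59 at Cox6a1, whose NMI was 1670 bp wide. The nearest NMI to Cox6a2 was 30728 bp away, at the TSSs of Armc5 and 9130023H24Rik. Both pairs thus combined a CpG-rich ubiquitous gene with an NMI at a TSS and a CpG-poor isoform without one.

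The heart and muscle isoforms Cox7a1 and Cox8b had 1.9 and 1.8 CpG per 100 bp, against 5.89 at Cox7a2 and 5.59 at Cox8a. The NMIs of these partners were modest in width, 989 bp at Cox7a2 and 655 bp at Cox8a. The NMI nearest to Cox7a1, at the TSS of Capns1, was 9497 bp away, and the one nearest to Cox8b, at Psmd13 and Sirt3, was 17826 bp away. Neither isoform reached the NMI of its neighbour.

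The 3 testis isoforms came closer to their partners in CpG density. Cox6b2 had 3.6 CpG per 100 bp, against 4.7 at Cox6b1, a difference of -1.1, yet the NMI of 805 bp lay at Cox6b1 only and the nearest one to Cox6b2, at the TSS of Kmt5c, was 11919 bp away. Cox8c had 2.8, against 5.59 at Cox8a, and the nearest NMI, at Btbd7, was 20155 bp away. Cox7b2 had 2.4, against 2.6 at Cox7b, a difference of -0.2, and neither gene of this pair had an NMI at a TSS. Cox7b2 stood in the emptiest surroundings, with 619502 bp to the nearest NMI, at Commd8, whereas an NMI lay 144 bp from Cox7b. In all, the ubiquitous partner had an NMI in 6 of the 7 pairs, which are 5 of 6 distinct partner genes, since Cox8a serves as partner of both Cox8b and Cox8c. Ndufa4l2 followed the same arrangement, with 1.4 CpG per 100 bp and no NMI, against 6.19 and an NMI of 1046 bp at Ndufa4.

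**Figure D2:**
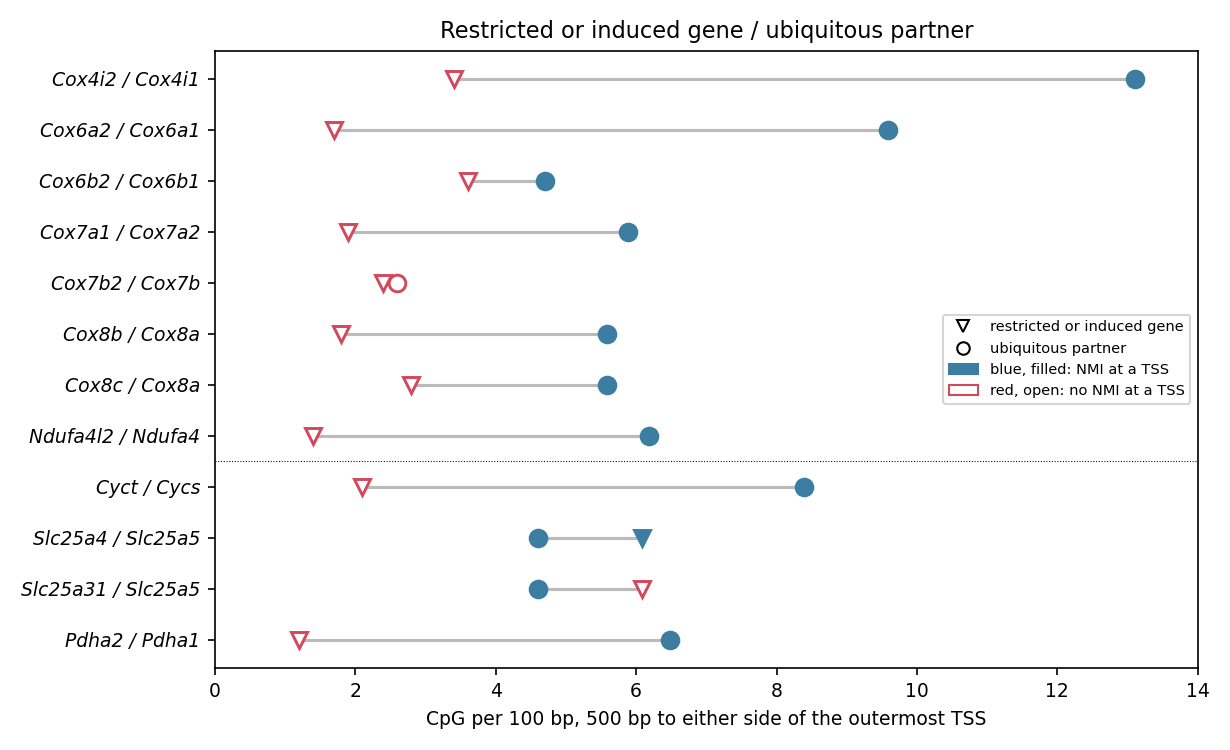
Each line joins a restricted or induced gene (triangle) to its ubiquitous partner (circle) by CpG per 100 bp around the outermost TSS; filled blue symbols have an NMI at a TSS and open red ones have none. The 7 isoform pairs and Ndufa4l2 stand above the dotted line, all with the restricted or induced gene to the left, and other genes of the pathway stand below it.

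Low CpG density went with few NMIs over all genes, so the restricted isoforms were set beside genes of the same density. Between 1.7 and 3.6 CpG per 100 bp, 861 of 3409 protein-coding genes had an NMI (25.3%), and 0 of the 7 restricted isoforms did. Of the 6 ubiquitous subunits in this range, 4 had an NMI, among them Atp5f1, Ndufa3 and Ndufa5, and 2 had none, Cox7b and the second Atp5o. Atp5f1 had its NMI at a TSS other than the outermost, and its highest density at any TSS was 8.09 CpG per 100 bp. The highest density at any TSS was 5.99 for Ndufa5, also above the range, and 3.4 for Ndufa3, within it. The number of isoforms is too small for the 0 of 7 to be read against 25.3%.

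Across bins of density at the outermost TSS the share with an NMI was higher in the ubiquitous subunits than in all protein-coding genes. The lowest bins held few subunits, and in the highest bin the shares were close. With 2 to 4 CpG per 100 bp the counts were 6 of 7 ubiquitous subunits and 0 of 4 restricted isoforms, against 35.1% of all protein-coding genes. With 4 to 6 CpG per 100 bp, where most ubiquitous subunits lay, 37 of 37 had an NMI, against 72.9% of all protein-coding genes. With 6 to 8 the count was 17 of 18, against 81.6%, and with 8 or more it was 7 of 8, against 83.9%. Below 2 it was 1 of 2 ubiquitous subunits and 0 of 3 restricted isoforms, against 7.97%. These bins set an NMI at any TSS against the density at the outermost one. Binned by the TSS of highest density, a choice made after seeing the data, the counts were 0 of 1 below 2 (against 0.41% of all protein-coding genes), 2 of 3 with 2 to 4 (22.8%) and 36 of 36 with 4 to 6 (69.6%). They were 21 of 22 with 6 to 8 (79.5%) and 9 of 10 with 8 or more (82.6%), and the restricted isoforms stayed at 0 of 3 and 0 of 4 in the lowest bins.

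**Figure D3:**
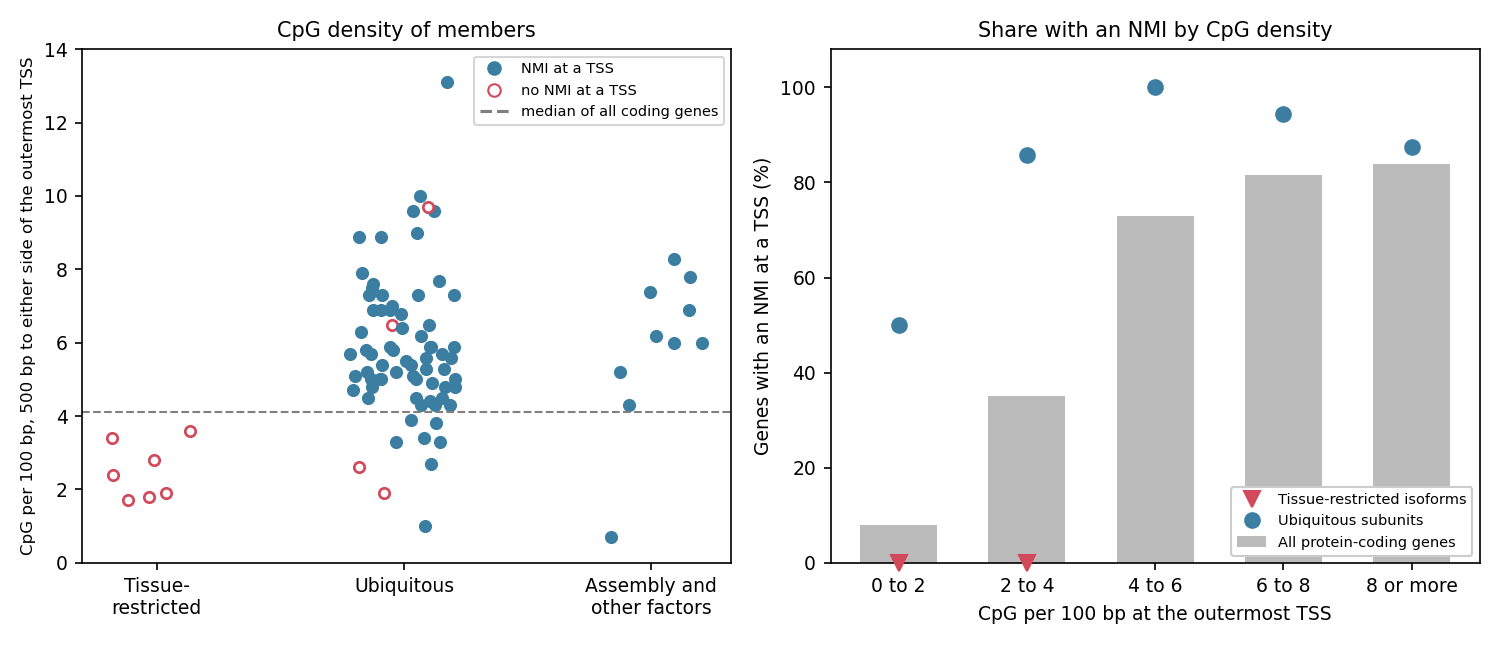
Left, CpG per 100 bp within 500 bp of the outermost TSS for each gene, by class, filled where an NMI lay at a TSS; the dashed line is the median of all protein-coding genes, 4.1, and the 7 restricted isoforms all fall below it. Right, the share of genes (%) with an NMI in bins of the same density, with bars for all protein-coding genes, circles for ubiquitous subunits and triangles for restricted isoforms.

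Complex I oxidises NADH, and its 7 nuclear-encoded core subunits, which belong to its catalytic peripheral arm, all had an NMI. Their widths ran from 807 bp at Ndufv1, the flavin-binding subunit, to 1533 bp at Ndufs1, with a median of 1025 bp. Of the 30 accessory subunits 28 had one, with a median width of 991 bp. The accessory subunits took in both the widest NMI of complex I, 2072 bp at Ndufa11, and the narrowest of all members, 574 bp at Ndufs6. The 8 complex I assembly factors of the Ndufaf series had NMIs of 700 to 1849 bp, the widest at Ndufaf3. These groups by role, here and below, were formed after the values had been seen. Their counts stand against 94.4% of the ubiquitous subunits and 47.9% of all protein-coding genes. With nearly all ubiquitous subunits having an NMI, no count is read as particular to a role.

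In complex III, which passes electrons from ubiquinol to cytochrome c, the core proteins Uqcrc1 and Uqcrc2 and the Rieske iron-sulfur protein Uqcrfs1 had NMIs of 931, 1388 and 1072 bp. The 5 small subunits had a median of 1466 bp. Among them Uqcrh, the hinge protein, had the widest NMI of all 78, 2087 bp at chr4:116074675-116076761. Uqcrb, with 679 bp, was among the 4 narrowest. In complex IV the widths ran from 655 bp at Cox8a to 1670 bp at Cox6a1, and Cox4i1 stood out by sequence, with the highest CpG content of any member's NMI, 11.0 per 100 bp at a GC content of 66.5%.

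In the ATP synthase all 5 subunits of the catalytic F1 head had an NMI, against 94.4% of all ubiquitous subunits. The NMI was 1829 bp wide at the beta subunit Atp5b and 887 bp wide at the epsilon subunit Atp5e. The 3 genes for the c subunit of the rotor ring, which encode the same mature protein, differed in width, with 1913 bp at Atp5g2, 1425 bp at Atp5g1 and 1064 bp at Atp5g3. The peripheral stalk held some of the widest NMIs, 1979 bp at Atp5h and 1900 bp at Atp5j, and one of the narrower ones, 703 bp at Atp5o. The 4 small membrane subunits Atp5j2, Atp5k, Atp5l and Atp5mpl had NMIs of 756 to 1431 bp. The median over the ATP synthase was 1375 bp and over complex III 1406 bp, against 1024 bp over complex I and 1077 bp over complex IV, for ubiquitous subunits in each case.

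Over all 78 genes the NMIs had a median width of 1074 bp (quartiles 914.5 and 1423), against 1210 bp (921 and 1592) for the 10425 protein-coding genes with one. The members' widths ran from 574 to 2087 bp. Those of Uqcrh and Ndufa11 exceeded 2000 bp, and the share above this width over all protein-coding genes was not computed. All 78 were at least 500 bp wide, as was an NMI at 10095 of the 10425 protein-coding genes with one. The 8 widest were those of Uqcrh, Ndufa11, Atp5h, Atp5g2, Atp5j, Ndufaf3, Atp5b and Cox6a1. The 4 narrowest were those of Ndufs6, Cox8a, Uqcrb and Ndufb7. Within the NMIs the median CpG content was 6.18 per 100 bp, against 6.86 for all protein-coding genes, and the median GC content was 57.4%, against 60.6%. CpG content was lowest at Uqcr11, a complex III subunit, with 3.79 CpG per 100 bp.

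The NMIs extended further into the gene than upstream. The median extent was 663 bp downstream and 380 bp upstream of the TSS, and the downstream side was the longer in 61 of 78 genes (78.2%), against 78.6% of all protein-coding genes with an NMI. In 3 of the 78 genes the outermost TSS inside the NMI lay within 50 bp of the upstream edge. The share over all protein-coding genes was not computed, so this count is not read as particular to the members. Ndufs4, a complex I subunit, had 7 bp upstream and 948 bp downstream. Cox7c, a complex IV subunit, had 30 and 997 bp, and Ndufa5 of complex I had 43 and 1096 bp. At the opposite extreme, 1690 of the 2087 bp at Uqcrh lay upstream of its TSS.

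**Figure D4:**
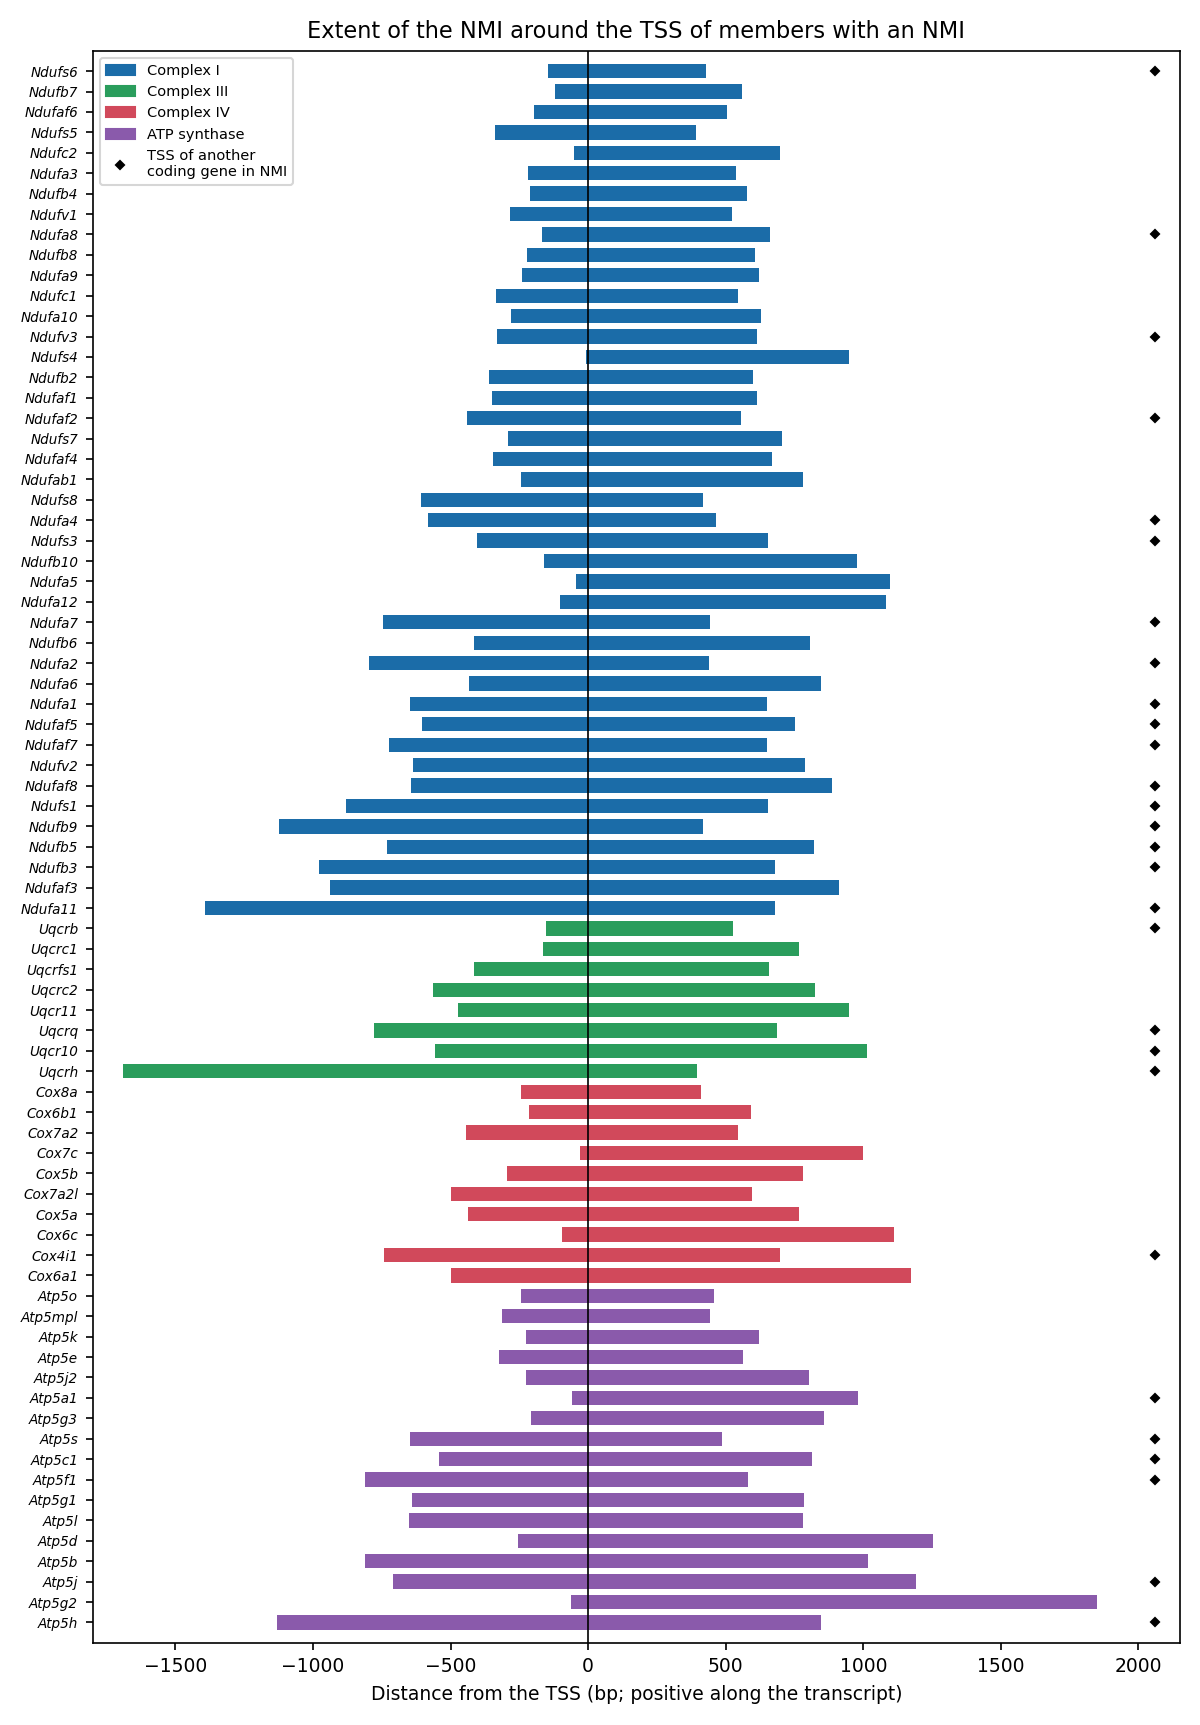
Bars show how far the NMI reached, in bp, from the outermost TSS inside it, in 77 of the 78 genes with one. Positive values run along the transcript, and bars are coloured by complex and sorted by width within each complex. Diamonds mark the 28 genes whose NMI also held a TSS of another protein-coding gene.

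Many of these genes shared their NMI with a neighbour. The NMI also held a TSS of another protein-coding gene in 28 of 78 members (35.9%), against 23.3% of all protein-coding genes with an NMI. In all 28 a neighbour was transcribed from the opposite strand, as in 2194 of the 2428 protein-coding genes that shared an NMI (90.4%). In another 8 members (10.3%) the only other TSS belonged to a noncoding gene, against 12.1%. No NMI was shared by 2 members. The 28 shared NMIs had a median width of 1366 bp and the 50 unshared ones 1018 bp, and over all protein-coding genes the same medians were 1406 and 1157 bp.

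The widest shared NMIs, in order, were those of Uqcrh with Lrrc41, Ndufa11 with Vmac, Atp5h with Kctd2, Atp5j with Gabpa, Ndufb3 with Fam126b, Uqcr10 with Zmat5, Ndufb5 with Mrpl47, Ndufb9 with Tatdn1, Ndufs1 with Eef1b2 and Ndufaf8 with Tepsin. Some neighbours, picked by name from the full set, are themselves known in mitochondria or translation. The share of such neighbours was not counted, in members or in all protein-coding genes, so no link in function is read from them. Gabpa encodes a subunit of the ETS-family factor NRF2/GABP, which is known to act on respiratory genes, and its NMI of 1900 bp at chr16:84834435-84836334 was that of the ATP synthase subunit Atp5j. Mrpl47 encodes a mitochondrial ribosomal protein and Eef1b2 a translation elongation factor. Outside the widest, and picked out after the values were seen, Ndufs6 shared its 574 bp with Mrpl36, another mitochondrial ribosomal protein, and Ndufa7 its 1188 bp with Rps28, a cytosolic ribosomal protein.

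Members with an NMI carried 375 annotated TSSs, and 282 of these lay inside an NMI (75.2%), against 59.5% for all protein-coding genes with an NMI. In 36 of the 78 genes every TSS was inside (46.2%), against 28.1%. The members carried fewer TSSs per gene, 375 in 78 genes against 60281 in 10425. These shares were not matched for the number of TSSs. In 5 genes (6.41%, against 10.5% of all protein-coding genes with an NMI) the NMI lay at an inner TSS and not at the outermost one. For Atp5f1, Atp5d and Atp5j2 the outermost TSS was 11, 109 and 245 bp from the NMI. For Cox7a2l, a factor of respiratory supercomplexes, it was 2503 bp away and had 0.699 CpG per 100 bp, against 5.59 at the TSS of highest density.

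Of the 4 ubiquitous subunits without an NMI at a TSS, 3 had one close by. Cox7b, a complex IV subunit on X, had a TSS 144 bp from an NMI of 281 bp downstream, at chrX:106015860-106016140, in which no annotated TSS lay. Ndufb11, a complex I subunit on X, had an NMI of 407 bp at chrX:20618026-20618432 that began 407 bp upstream of its TSS. Ndufa13, a complex I subunit also known as the cell death regulator GRIM-19, had one of 666 bp at chr8:69901201-69901866, 692 bp downstream of its annotated TSS. These 3 nearby NMIs were all narrower than the median of the members.

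The promoters of Ndufb11 and Ndufa13 are shown because they were CpG-rich without an NMI, with the same 250 bases and capitals as above.
Ndufb11: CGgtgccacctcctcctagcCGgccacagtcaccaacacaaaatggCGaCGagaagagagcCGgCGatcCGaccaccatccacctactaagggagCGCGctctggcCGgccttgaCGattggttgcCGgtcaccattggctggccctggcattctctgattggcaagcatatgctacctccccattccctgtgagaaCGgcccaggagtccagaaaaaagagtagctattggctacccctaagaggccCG
Ndufa13: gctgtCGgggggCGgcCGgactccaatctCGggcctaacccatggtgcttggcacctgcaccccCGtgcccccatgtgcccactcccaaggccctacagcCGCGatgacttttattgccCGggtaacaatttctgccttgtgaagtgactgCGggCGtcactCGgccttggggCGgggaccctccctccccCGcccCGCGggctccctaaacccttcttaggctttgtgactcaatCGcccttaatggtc

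Ndufb11 (chrX:20617620-20617869, minus strand) held 14 CpG sites and Ndufa13 (chr8:69902021-69902270, minus strand) 16, as many as or more than the 14 of Cox7a2 and Cox6b1, which lay in NMIs. Over the wider window the densities were 6.49 and 9.69 CpG per 100 bp. The RefSeq start of Ndufa13 lies 538 bp downstream of the GENCODE one and was 154 bp from the NMI. With a TSS allowed to lie within 250 bp of an NMI Cox7b was counted as well, giving 79 of 90 members, against 48.6% of all protein-coding genes. Within 1000 bp Ndufa13 and Ndufb11 were too, giving 81, against 49.4%. None of the restricted isoforms was added at either distance.

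The fourth was the second gene ID of Atp5o, whose single TSS had 1.9 CpG per 100 bp and lay 4247 bp from the NMI of 703 bp that holds the start of the other Atp5o. GENCODE marks its only transcript as one whose start was not found, and it runs far beyond the other Atp5o, so the listed TSS may not be a start and the ID may not be a separate subunit gene. Counted by symbol, 78 of 89 had an NMI (87.6%). Of the 3 members on X, only Ndufa1 had an NMI at a TSS, 1298 bp wide, against 257 of 948 protein-coding genes on X (27.1%). By the outermost TSS alone the count was 73 of 90, against 42.9% of all protein-coding genes, and by protein-coding transcripts alone it was 77, against 47.1%. It stayed at 78 with NMIs of at least 500 bp, against 46.4%, and with the TSS at least 100 bp inside both edges, against 46.9%. On the autosomes 77 of 87 members had one (88.5%), against 10168 of 20807 protein-coding genes (48.9%). Members without an NMI lay a median of 10470 bp from the nearest one, and the restricted isoforms 17826 bp (9497 to 619502), against 73060 bp over the 11330 protein-coding genes without an NMI.

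Of the other genes of the pathway, 59 of 64 had an NMI at a TSS (92.2%), against 47.9% of all protein-coding genes. All 18 assembly factors of complex IV and the 6 further assembly factors of complex I had one, as did 7 of 8 genes of complex II and 11 of 12 regulators of respiratory genes. The NMIs of the 11 regulators ran from 882 bp at Polrmt, the mitochondrial RNA polymerase, to 2841 bp at the transcription factor gene Yy1, with a median of 1713 bp. The 5 genes without were Sdhaf1, an assembly factor of complex II, the testis cytochrome c gene Cyct, the testis adenine nucleotide carrier Slc25a31, the testis pyruvate dehydrogenase gene Pdha2 and the coactivator gene Ppargc1a. Sdhaf1 lay 1047 bp and Ppargc1a 869 bp from the nearest NMI.

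These genes hold further pairs of the same kind. Cyct had 2.1 CpG per 100 bp and no NMI, against 8.39 and 1487 bp at Cycs, the somatic cytochrome c. Pdha2 had 1.2 and no NMI, against 6.49 and 967 bp at Pdha1. The adenine nucleotide carriers departed from this arrangement. Slc25a4, the heart and muscle form, had an NMI of 1128 bp and 6.09 CpG per 100 bp, against 1213 bp and 4.6 at the widely used Slc25a5. Slc25a31 had no NMI although its density, 6.09, was above the 4.6 of Slc25a5.

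Short motifs of factors known for respiratory genes were sought in the RefSeq promoters, from 250 bases upstream to 50 downstream, on both strands. Promoters were matched for 4 of 7 restricted isoforms and 60 of 72 ubiquitous subunits, and 17274 protein-coding genes served as background. The NRF1 core GCATGCGC was in 0 of the 4 restricted isoforms and 9 of the 60 ubiquitous subunits (15.0%), against 3.98% of all genes. Those 9 were Atp5g2, Atp5k, Atp5l, Cox6a1, Ndufa11, Ndufa6, Ndufa8, Uqcr11 and Uqcrc1. The ETS motif CCGGAAG was in 0 of 4 and 14 of 60 (23.3%), against 13.1%, and the YY1 motif AAGATGGCG in 0 of 4 and 7 of 60 (11.7%), against 2.15%. The NRF1 and YY1 motifs were first sought as longer strings and then shortened. The longer strings were in 0 of 4 and 5 of 60 (8.33%, against 1.49% of all genes) for NRF1 and in 0 of 4 and 4 of 60 (6.67%, against 1.07%) for YY1.

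General promoter motifs were not more frequent in the ubiquitous subunits than in all genes. GGGCGG was in 2 of 4 restricted isoforms and 23 of 60 ubiquitous subunits (38.3%), against 49.8% of all genes, and CCAAT in 3 of 4 and 24 of 60 (40.0%), against 42.7%. TATAAA was in 2 of 4, Cox7b2 and Cox8b, and 5 of 60 (8.33%), against 14.9%. The longer NRF1 and YY1 strings contain the shorter ones. Apart from these, none of the motifs contains another, but matches of different motifs can overlap in a promoter. A match is a stretch of letters and not a measured site. GGGCGG and the NRF1, ETS and YY1 motifs contain a CpG, and the part of CpG density in these counts was not tested.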

How the data were processed

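BioCAP, BioCAP input, ATAC and 4sU RNA libraries of C127 cells were listed in the labels, and only the NMI list of the BioCAP library (n = 1) was analysed here. The authors' processing notes name mm10, Bowtie2, SAMtools and MACS2, and the methods name MACS for the NMI calls. Whether the input served as control for this list is not stated, and versions were not given in the sources used here. The deposited values were positions in bp, with no depth, score or p-value, so the depth is unknown. Reads without a unique position, if discarded, would remove signal from near-identical copies, and an enrichment threshold leaves weakly captured islands out. The study draws on a larger set of NMIs than this list holds.

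Starts were counted from 1. GENCODE M21 TSSs were intersected with the 13489 NMIs on chromosomes 1 to 19 and X (overlap of at least 1 bp). CpG density and GC came from GRCm38 over 500 bp to either side of the outermost TSS. Promoters were RefSeq's (GRCm38.p6), matched by symbol or synonym. Intervals are exact (Clopper-Pearson, 95%) and cover counting error only. Python 3.11.15, NumPy 2.4.6 and SciPy 1.17.1 were used, and the overlap code was tested on simulated intervals. The members, lists and isoform pairs were chosen with earlier results of these data known. Genes named were the restricted isoforms, Ndufa4l2 and their partners, members and other pathway genes without an NMI, the 8 widest and 4 narrowest NMIs, those only at an inner TSS or with a TSS within 50 bp of an edge, and the 10 widest shared ones. Names outside these rules were added after the values were seen, and 1 gene that the rules take in is not reported here. Alternatives were distances of 250 and 1000 bp, the outermost TSS, protein-coding transcripts, a minimum width of 500 bp, a TSS at least 100 bp inside the edges, and other CpG windows.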

Additional observations from a re-analysis of the deposited data

How the results depend on the processing

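With 10 results and 52 alternatives, 4 of them added after seeing the data, every count stayed within 1.5 times its value and every median moved by less than 1 SD over its genes. The restricted isoforms stayed at 0 of 7 under all 6 alternatives run on that count. The ubiquitous subunits ranged from 64 of 72 with the outermost TSS only to 71 of 72 within 1000 bp, and all members from 73 to 81 of 90, against 42.9% to 49.4% of all protein-coding genes. Protein-coding transcripts alone lost Atp5f1. Over 250 bp and 1000 bp to either side, the median CpG density was 2.59 and 1.8 in the restricted isoforms (main value 2.4, SD 0.776), against 6.79 and 3.7 in the ubiquitous subunits (main value 5.59, SD 2.0), and both medians at 1000 bp lay below the lower quartile of the main values, 1.85 and 4.8. No paired analysis was possible because the list comes from 1 library. No replicate could be left out, enrichment could not be weighed without scores, and 7 restricted isoforms leave an interval of up to 41.0%.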
